A study of Mus musculus with 8 samples.

Results

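The genes described here are the 7 that encode PU.1 and the C/EBP family: *Spi1* (PU.1), *Cebpa*, *Cebpb*, *Cebpd*, *Cebpe*, *Cebpg* and *Cebpz*, chosen by name out of 21938 protein-coding genes. H3K9ac, a histone acetylation found at active promoters and enhancers, was mapped by ChIP-seq in frozen BM cells (labelled as whole bone marrow, not sorted) of C57BL/6 mice that all carry the *Nup98-HOXD13* transgene, a fusion gene used as a model of MDS. The mice were *GFI1-36S* (the serine form of GFI1), *GFI1-36N* (asparagine in place of the serine) or *GFI1-KD* (reduced GFI1 expression), and were treated with 20 mg/kg curcumin, a natural inhibitor of histone acetyltransferases, weekly by i.p. injection or with vehicle (DMSO, per the methods). A figure title of the paper names c-kit+ cells for these data, while its caption and methods give frozen BM cells. Age and the number of mice behind a library are not given in the sources used here. Each of the 3 genotypes has 1 vehicle and 1 curcumin library, 6 in all, so that differences rest on single libraries and were not tested.

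PU.1 is an ETS factor that commits progenitors to the myeloid and B-cell lineages and is needed at high levels in macrophages and neutrophils. The C/EBP proteins are basic leucine zipper factors that bind DNA as dimers. C/EBPα drives the step to granulocyte and monocyte progenitors, C/EBPβ sustains granulopoiesis under stress, C/EBPδ is an early factor of inflammation, and C/EBPε is needed for the last steps of neutrophil maturation and for secondary granules. C/EBPγ lacks an activation domain and acts as a partner of the others. *Cebpz* shares only the name, as its product is no leucine zipper protein and belongs to a family of ribosome assembly factors. *Spi1* and *Cebpa* are each controlled by a distal enhancer, upstream of *Spi1* and downstream of *Cebpa*, and *Cebpe* by one downstream of it, and PU.1 and C/EBP proteins bind at these elements.

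The genes lie at chr2:91082390-91115756 (*Spi1*, plus strand), chr7:35119293-35121928 (*Cebpa*, plus), chr2:167688915-167690418 (*Cebpb*, plus), chr16:15887286-15891031 (*Cebpd*, plus), chr14:54710360-54712174 (*Cebpe*, minus), chr7:35046422-35056573 (*Cebpg*, minus) and chr17:78919006-78937066 (*Cebpz*, minus) of mm10. The *Spi1* TSS used here is base 91096096, since the upstream start of the gene record belongs to transcripts outside the basic annotation set. The sequences upstream of the TSS of *Spi1*, *Cebpe* and *Cebpa* and the 300 bases around the H3K9ac summit of the *Cebpa* downstream enhancer are shown, because *Spi1* and *Cebpe* are the CpG-poor members with peaks that differ between libraries, and *Cebpa* is a CpG-rich one that shares the absence of a peak with them. They were read from the RefSeq GRCm38.p6 assembly, 5′ to 3′ on the strand of the gene. The promoters are the 250 bases before the TSS, at chr2:91095846-91096095, chr14:54712175-54712424 and chr7:35119043-35119292, and the enhancer window is chr7:35156689-35156988, which lies outside annotated genes. Capitals mark GAGGAA, a core of PU.1 binding sites, in the promoters and ACCACA, which is the RUNX letters TGTGGT read on the other strand, in the enhancer window.
*Spi1* promoter: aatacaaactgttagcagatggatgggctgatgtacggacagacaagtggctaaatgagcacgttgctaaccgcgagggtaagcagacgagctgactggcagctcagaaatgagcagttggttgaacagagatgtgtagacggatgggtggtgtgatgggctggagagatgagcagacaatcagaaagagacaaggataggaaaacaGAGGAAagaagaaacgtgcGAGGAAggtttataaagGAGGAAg
*Cebpe* promoter: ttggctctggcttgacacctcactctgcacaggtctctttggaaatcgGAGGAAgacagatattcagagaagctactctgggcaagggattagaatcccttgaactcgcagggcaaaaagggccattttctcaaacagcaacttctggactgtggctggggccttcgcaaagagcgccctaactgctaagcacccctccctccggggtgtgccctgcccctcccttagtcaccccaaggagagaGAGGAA
*Cebpa* promoter: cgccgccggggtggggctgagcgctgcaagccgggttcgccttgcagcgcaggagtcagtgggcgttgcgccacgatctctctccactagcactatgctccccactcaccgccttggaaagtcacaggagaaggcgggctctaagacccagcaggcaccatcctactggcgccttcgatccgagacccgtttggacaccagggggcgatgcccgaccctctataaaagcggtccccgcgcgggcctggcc
*Cebpa* downstream enhancer: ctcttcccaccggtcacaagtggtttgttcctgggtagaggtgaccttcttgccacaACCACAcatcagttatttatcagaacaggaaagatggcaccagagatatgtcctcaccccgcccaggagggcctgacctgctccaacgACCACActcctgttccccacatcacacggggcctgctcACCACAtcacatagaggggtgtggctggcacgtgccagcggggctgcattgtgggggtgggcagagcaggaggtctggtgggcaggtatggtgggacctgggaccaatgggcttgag

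The *Spi1* promoter holds GAGGAA 3 times, beginning at −43, −24 and −7 relative to the TSS, and 0.410% of the promoters of all 21938 genes hold it at least as often on either strand. The *Cebpe* promoter holds it 2 times, at −202 and −6, as 3.61% of all promoters do at least. GAGGAA was added to the motif search after the sequences were seen, and it lies inside the longer PU.1 motif GAGGAAGT, which none of the 7 promoters holds. The *Cebpa* promoter has none of the marked letters. The C/EBP letters TTGCNNAA and the GFI1 letters AAATCA, searched on both strands, occur in none of the 7 promoters, against 9.04% and 11.99% of all promoters. The shorter GFI1 letters AATC occur in those of *Spi1*, *Cebpd*, *Cebpe*, *Cebpg* and *Cebpz*, and in 68.8% of all promoters. In the *Cebpa* enhancer window, TGTGGT occurs 3 times, and 0.341% of 26112 windows of the same length around the non-promoter summits of the *GFI1-36S* vehicle library hold it as often. Windows of the same length at the *Spi1* upstream element and the *Cebpe* downstream enhancer were searched too. They hold none of the PU.1, C/EBP, RUNX or GFI1 letters named so far. The shorter PU.1 letters GGAA occur in all 7 promoters and in each of the enhancer windows. They also occur in 93.4% of all promoters and in 97.0% of the summit windows. The percentage for the *Cebpa* window does not allow for these other searches. A match is a description of letters and no binding site. By CpG content within 1 kb of the TSS, *Spi1* and *Cebpe* stand apart from the others, with observed over expected CpG ratios of 0.299 and 0.305 against a median of 0.484 over all genes. The ratio is 0.654 for *Cebpz* and between 0.836 for *Cebpg* and 0.909 for *Cebpb* for the remaining members.

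Each deposited peak has a fold enrichment over the local background, given by the authors' peak caller. This value is not normalized between libraries: the median promoter peak had a fold enrichment of 12.5 in the library labelled *GFI1-36S* curcumin and between 17.5 and 21.7 in the other 5. The strongest peak within 1 kb of a TSS of each gene was therefore ranked from 0 (no peak) to 100 among those of all protein-coding genes of its library. The lists held between 20354 (*GFI1-36S* curcumin) and 49213 peaks (*GFI1-36N* curcumin), and the median summit between 24 and 36 fragments. The library labelled *GFI1-36S* curcumin stands apart in its number of peaks, in 3 peaks on chromosome Y where the others had none, and in its lineage markers given below. The treatment in the name of each deposited *GFI1-36S* list is also the reverse of the one its sample is labelled with. Treatments were taken from the labels, and every direction given for this pair turns round if the names are right. By their names, the *GFI1-36N* lists also differ in zygosity, heterozygous with vehicle and homozygous with curcumin, on which the labels are silent.

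All 7 promoters had an H3K9ac peak in 5 of the 6 libraries, whereas 51.9%, 51.7%, 53.8%, 53.6% and 50.6% of all genes did in *GFI1-36S* vehicle, *GFI1-36N* vehicle and curcumin and *GFI1-KD* vehicle and curcumin. In the library labelled *GFI1-36S* curcumin, 3 of the 7 promoters had a peak, *Cebpb*, *Cebpg* and *Cebpz*, and the promoters of *Spi1*, *Cebpa*, *Cebpd* and *Cebpe* had none. Over all genes, 44.3% had a promoter peak there. In the same library, 0 of 13 neutrophil markers and all 14 T-cell markers had one, against 12 and 7 in *GFI1-36S* vehicle. In BM, fewer cells of a type and less H3K9ac per cell cannot be told apart. The order of the levels in the other 5 libraries was led by *Spi1*, with a median rank of 97.8, followed by *Cebpd* (91.7), *Cebpg* (87.7), *Cebpb* (87.6), *Cebpz* (85.2), *Cebpa* (59.2) and *Cebpe* (24.0). The ranges of *Spi1*, *Cebpd*, *Cebpg*, *Cebpb* and *Cebpz* over these libraries overlap with those of their neighbours in this order. *Cebpa*, between 52.9 and 75.2, stayed below every value of these 5 genes, and *Cebpe*, between 8.49 and 34.9, below every value of *Cebpa*.

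**Figure D1:**
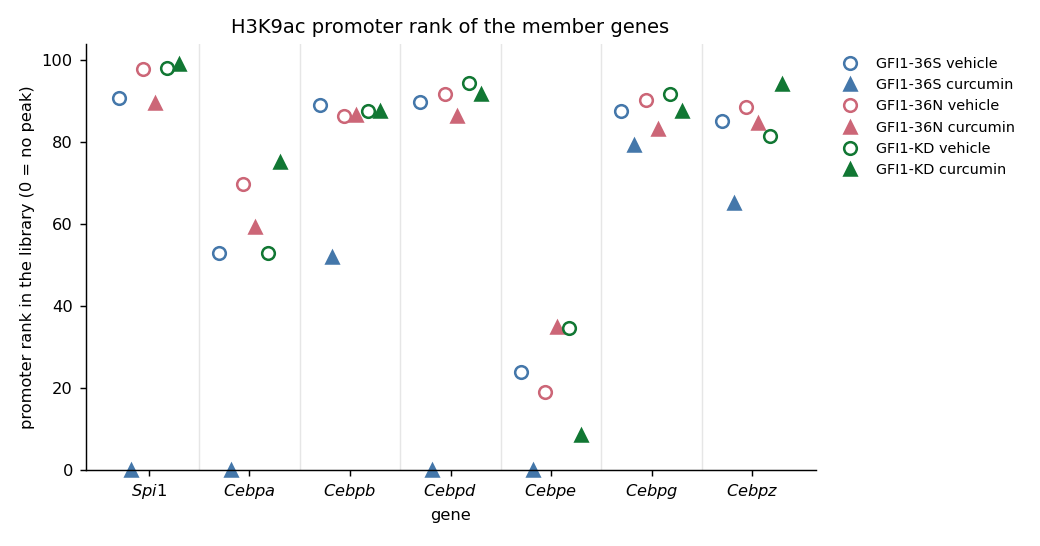
Promoter rank of the 7 genes on a scale from 0 (no peak) to 100 in each of the 6 libraries, with open circles for vehicle, filled triangles for curcumin and 1 colour per genotype. *Spi1*, *Cebpa*, *Cebpd* and *Cebpe* sit at 0 in the library labelled *GFI1-36S* curcumin alone, and *Cebpe* has the lowest ranks elsewhere. Each point is 1 library, so there are no error bars.

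*Spi1* had promoter ranks of 90.8 and 0 in the *GFI1-36S* pair (vehicle and curcumin), 97.8 and 89.6 in the *GFI1-36N* pair and 98.1 and 99.0 in the *GFI1-KD* pair. Its promoter was thus among the strongest of the genome in 5 libraries and without a listed peak in 1. In those 5, the peak held 192, 246, 191, 318 and 248 fragments at its summit, between 996 and 1042 bp downstream of the TSS. If the summit itself had to lie within 1 kb of the TSS, *Spi1* would have a promoter peak in *GFI1-36N* curcumin alone, and with the upstream starts of the full annotation it would have a weak one in the library labelled *GFI1-36S* curcumin. *Cebpa* ranked 52.9 and 0, 69.9 and 59.2, and 53.0 and 75.2 in the same order. *Cebpd* ranked 89.9 and 0, 91.8 and 86.4, and 94.5 and 91.7. *Cebpa* lay in the middle of the range of promoters where *Cebpd* lay near its top, and both were absent from the same library. *Cebpe* ranked 24.0 and 0, 19.0 and 34.9, and 34.6 and 8.49. It is the member whose promoter varied most in relative terms among the libraries with a peak, with fold enrichments from 5.69 in *GFI1-KD* curcumin to 16.6 in *GFI1-36N* curcumin.

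The 3 members with a peak in every library ranked at 81.5 or more outside the library labelled *GFI1-36S* curcumin. *Cebpb* ranked 89.1 and 51.8 in the *GFI1-36S* pair, 86.5 and 86.7 in the *GFI1-36N* pair and 87.6 and 87.6 in the *GFI1-KD* pair. Outside the library labelled *GFI1-36S* curcumin, its rank lay between 86.5 and 89.1. *Cebpg* ranked 87.7 and 79.2, 90.4 and 83.3, and 91.7 and 87.6. *Cebpz* ranked 85.2 and 65.1, 88.6 and 84.6, and 81.5 and 94.1. Its promoter is shared with that of *Ndufaf7*, a mitochondrial assembly gene whose TSS lies 70 bp away, so that the peak cannot be given to 1 of them. All 3 had their lowest rank in the library labelled *GFI1-36S* curcumin.

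To ask how curcumin treatment compares with vehicle, the pairs were taken genotype by genotype. In the *GFI1-36S* pair as labelled, 4 of the 7 members had a promoter peak with vehicle and none with curcumin, where 16.2% of 11608 genes did that had such a peak in the pair. All 7 ranked lower in the curcumin library, with a median change of −37.3, while 69.1% of all genes ranked lower, with a median of −6.61. Of the 3 members with a peak in both libraries, 1 differed by at least 1.5 times in fold enrichment relative to the median promoter peak of its library, as did 20.1% of all such genes. This was *Cebpb*, at 0.652 times its vehicle value, while *Cebpg* stood at 0.926 and *Cebpz* at 0.804 times. With equal numbers of top peaks, or a threshold of 2 times, 0 of the 3 differed.

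Strong promoters were seldom without a peak in this library. A peak was present in the other 5 libraries and absent from the one labelled *GFI1-36S* curcumin for 4 of the 7 members, and for 12.1% of 10628 genes that had one in those 5. Of 579 genes that ranked at least as high as the lowest *Spi1* value (89.6) in each of the other 5 libraries, 5 had no peak in it, namely *Spi1*, *Zeb2*, *Lmo2*, *Dennd5a* and *Nlrx1*. *Lmo2* encodes a partner of blood transcription factors and *Zeb2* a zinc finger repressor used in myeloid cells. With the lowest value of *Cebpd* (86.4) as the floor, 6 of 792 genes had none, which are the same 5 and *Cebpd* itself. With that of *Cebpa* (52.9), 37 of 4018 genes, or 0.921%, had none, among them the phagocyte gene *Sirpa*. With that of *Cebpe* (8.49), 7.15% of 9742 genes had none.

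The genes with the promoter pattern most like that of *Spi1* over the 6 libraries, by the root mean square difference in rank, were *Dennd5a* (2.65), *Nlrx1* (3.36) and *Sgk3* (3.42). *Sgk3* differed from the first pair in having a listed peak in the library labelled *GFI1-36S* curcumin, at rank 0.0103. For *Cebpa* they were *Tm6sf1* (4.93), *Ttc39c* (5.77) and *Mtmr10* (5.94).

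In the *GFI1-36N* pair, all 7 members kept a promoter peak, while 7.57% of 12022 genes had one in a single library of the pair. The members ranked lower with curcumin in 5 cases and higher in 2, with a median change of −5.38, whereas the median over all genes was 1.89 and 39.9% of genes ranked lower. *Spi1*, *Cebpa*, *Cebpd*, *Cebpg* and *Cebpz* were the lower ones, at 0.777, 0.883, 0.880, 0.871 and 0.913 times their vehicle fold enrichment relative to the median promoter. These are small differences, and none reached 1.5 times. *Cebpe* alone did, at 1.55 times (fold enrichment 8.91 with vehicle and 16.6 with curcumin), where 7.33% of all genes did in either direction. *Cebpb* was nearly equal in both libraries.

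In the *GFI1-KD* pair, all 7 members again had a peak in both libraries, while 7.92% of 11908 genes had one in a single library. *Spi1*, *Cebpa*, *Cebpb* and *Cebpz* ranked higher with curcumin and the other 3 lower, with a median change of 0.00204, that of *Cebpb*, while 62.9% of all genes ranked lower, with a median of −2.34. *Cebpe* differed most, with a fold enrichment of 16.4 and 119 fragments at the summit with vehicle and 5.69 and 34 fragments with curcumin. This was 0.393 times the vehicle value relative to the median promoter, and it was the only member past 1.5 times, where 8.07% of all genes were. *Cebpa* moved the other way, to 1.30 times its vehicle value. *Cebpe* thus ranked higher with curcumin in *GFI1-36N* and lower in *GFI1-KD* mice, and *Cebpa* the reverse, though the difference between genotypes was not tested.

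Lineage markers also differed between the libraries. Of 14 T-cell markers, 7 and 14 had a promoter peak in the *GFI1-36S* pair, 8 and 6 in the *GFI1-36N* pair and 4 and 5 in the *GFI1-KD* pair, with summed ranks of 45.9 and 596, 54.6 and 46.8, and 14.9 and 26.1. *Cd3e*, a T-cell receptor subunit gene, had no promoter peak in any library but the one labelled *GFI1-36S* curcumin, where it ranked 28.6. Of 13 neutrophil markers, 12 and 0, 9 and 9, and 12 and 5 had a peak, with summed ranks of 184 and 0, 95.5 and 119, and 316 and 72.6. Of 9 monocyte markers, 9 and 1, 9 and 9, and 9 and 9 had one, with summed ranks of 191 and 6.05, 356 and 241, and 248 and 393. The library without the *Spi1*, *Cebpa*, *Cebpd* and *Cebpe* peaks was also the one with most T-cell and least neutrophil and monocyte marker signal, and in *GFI1-KD* mice the lower *Cebpe* and higher *Cebpa* rank with curcumin came with lower neutrophil and higher monocyte values. In that *GFI1-KD* pair, 9 of 12 neutrophil markers with a peak ranked lower and 3 higher, and 8 of 9 monocyte markers ranked higher. All 8 erythroid markers ranked lower too (median change −22.1), where 62.9% of all genes did. In *GFI1-36N* mice, 6 of the 9 neutrophil markers with a peak in the pair ranked higher with curcumin (median change 4.96), while 5 of the 7 members ranked lower. Of all genes with a peak in that pair, 39.9% ranked lower, with a median change of 1.89. The part of cell composition in these results was not tested.

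Of the other lineages, B-cell markers were sparse, with 1 and 0, 3 and 1, and 4 and 2 of 9 promoters with a peak. Erythroid markers had 8 and 1, 7 and 6, and 8 and 5 of 8, and stem and progenitor markers 8 and 2, 10 and 8, and 10 and 10 of 10. These lists too had their fewest peaks in the library labelled *GFI1-36S* curcumin.

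Between the vehicle libraries, the genotypes differed mainly at *Cebpa* and *Cebpe* among the 7 members. The spread of such differences over all genes is not given here. *Cebpa* ranked 17.0 higher in *GFI1-36N* than in *GFI1-36S* mice and 0.134 higher in *GFI1-KD* than in *GFI1-36S* mice. *Cebpe* ranked 10.7 higher in *GFI1-KD* than in *GFI1-36S* mice, and the difference between *GFI1-36N* and *GFI1-36S* was −4.99. *Spi1* was higher by 6.96 in *GFI1-36N* and 7.25 in *GFI1-KD* than in *GFI1-36S* mice. These comparisons share the *GFI1-36S* vehicle library. For *GFI1-KD* against *GFI1-36N* mice, the differences were −16.9 at *Cebpa* and 15.6 at *Cebpe*. For *Cebpb*, *Cebpd*, *Cebpg* and *Cebpz* the vehicle libraries differed by small amounts, with *Cebpz* widest, at −7.10 for *GFI1-KD* against *GFI1-36N* mice.

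Peak width set *Cebpb* apart from the other members. Its promoter peak covered 5456 and 1743 bp in the *GFI1-36S* pair, 5819 and 6184 bp in the *GFI1-36N* pair and 6770 and 6352 bp in the *GFI1-KD* pair (vehicle and curcumin). In the 5 libraries other than *GFI1-36S* curcumin this was between rank 98.9 and 99.6 of all promoter peaks by width, wider than the median promoter peak of 1541 to 1963 bp in these libraries, while its rank by fold enrichment was lower. *Spi1*, *Cebpa* and *Cebpd* had peaks between 3356 and 4863 bp. *Cebpg* (2559 to 3161 bp) and *Cebpz* (1837 to 2047 bp) were narrower, and *Cebpz* was near the middle of all promoters. *Cebpe* was again the most variable, at 2303 bp in *GFI1-36S* vehicle, 2517 and 3542 bp in the *GFI1-36N* pair and 4566 and 1286 bp in the *GFI1-KD* pair. Its width and its fold enrichment were both lowest in *GFI1-KD* curcumin.

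**Figure D2:**
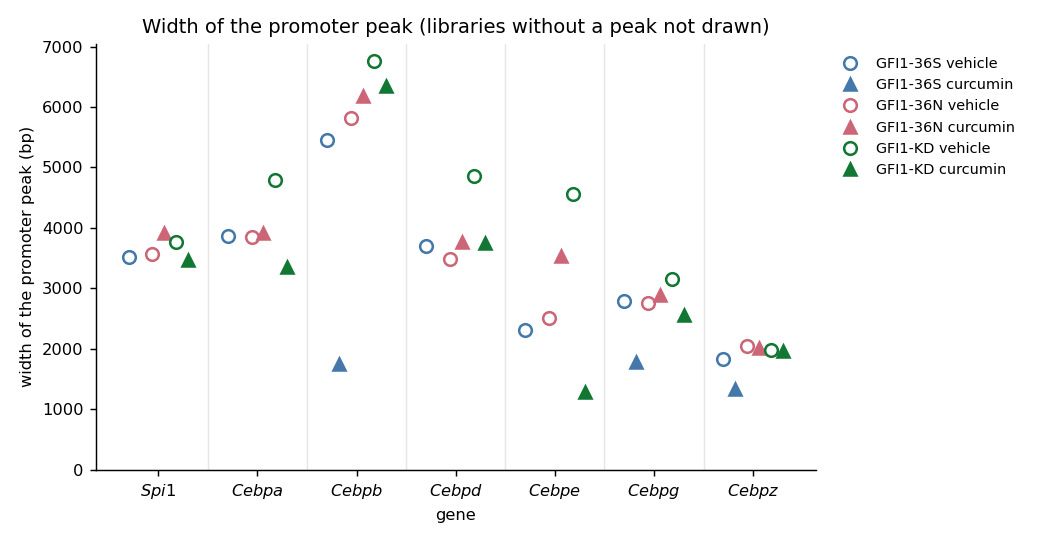
Width in bp of the strongest promoter peak of each gene in the libraries that have one, with open circles for vehicle and filled triangles for curcumin. *Cebpb* is widest in every library except *GFI1-36S* curcumin, where it covers 1743 bp. *Cebpe* spans 1286 to 4566 bp.

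The *Spi1* upstream regulatory element was examined in the window from 12 to 18 kb upstream of the TSS. All 6 libraries had a peak there, with a fold enrichment of 12.9 and 5.52 in the *GFI1-36S* pair, 15.8 and 12.1 in the *GFI1-36N* pair and 19.4 and 18.2 in the *GFI1-KD* pair (vehicle and curcumin). The summits lay between −13569 and −13189 bp from the TSS. The element thus kept a weak peak in the library labelled *GFI1-36S* curcumin, in which the promoter at the TSS used here had none. This contrast depends on the annotation, since the weak peak lies within 1 kb of the upstream start of the *Spi1* gene record. With all annotated TSSs it counts as a *Spi1* promoter peak. That peak was 443 bp wide with 30 fragments at its summit, against widths of 3698 to 8882 bp and 69 to 141 fragments in the other 5. A second site at −18077 to −16609 bp had peaks with a fold enrichment of 9.78 to 14.5 in these 5 libraries and none in *GFI1-36S* curcumin. In each of the 5, the promoter was stronger than the element.

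Downstream of *Cebpa*, a site from 36595 to 37966 bp past the TSS had a weak peak in the same 5 libraries. Its fold enrichment was 5.90 in *GFI1-36S* vehicle, 4.32 and 6.58 in the *GFI1-36N* pair and 5.35 and 5.48 in the *GFI1-KD* pair, below the promoter in each. By rank among all peaks of its library, the site stood at 48.2 and 69.2 in the *GFI1-36N* pair. In the *GFI1-KD* pair it stood at 57.5 and 47.3, so that the direction turned there. This is the site whose sequence is shown above with 3 copies of the RUNX letters. A stronger site nearer to the gene, from 7384 to 9169 bp, had values of 8.25, 8.48 and 10.7, and 11.4 and 11.1 in the same order. No peak at all was listed within 50 kb of *Cebpa* in the library labelled *GFI1-36S* curcumin, so that the promoter, both downstream sites and a site at −38713 to −37646 bp were all absent together.

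**Figure D3:**
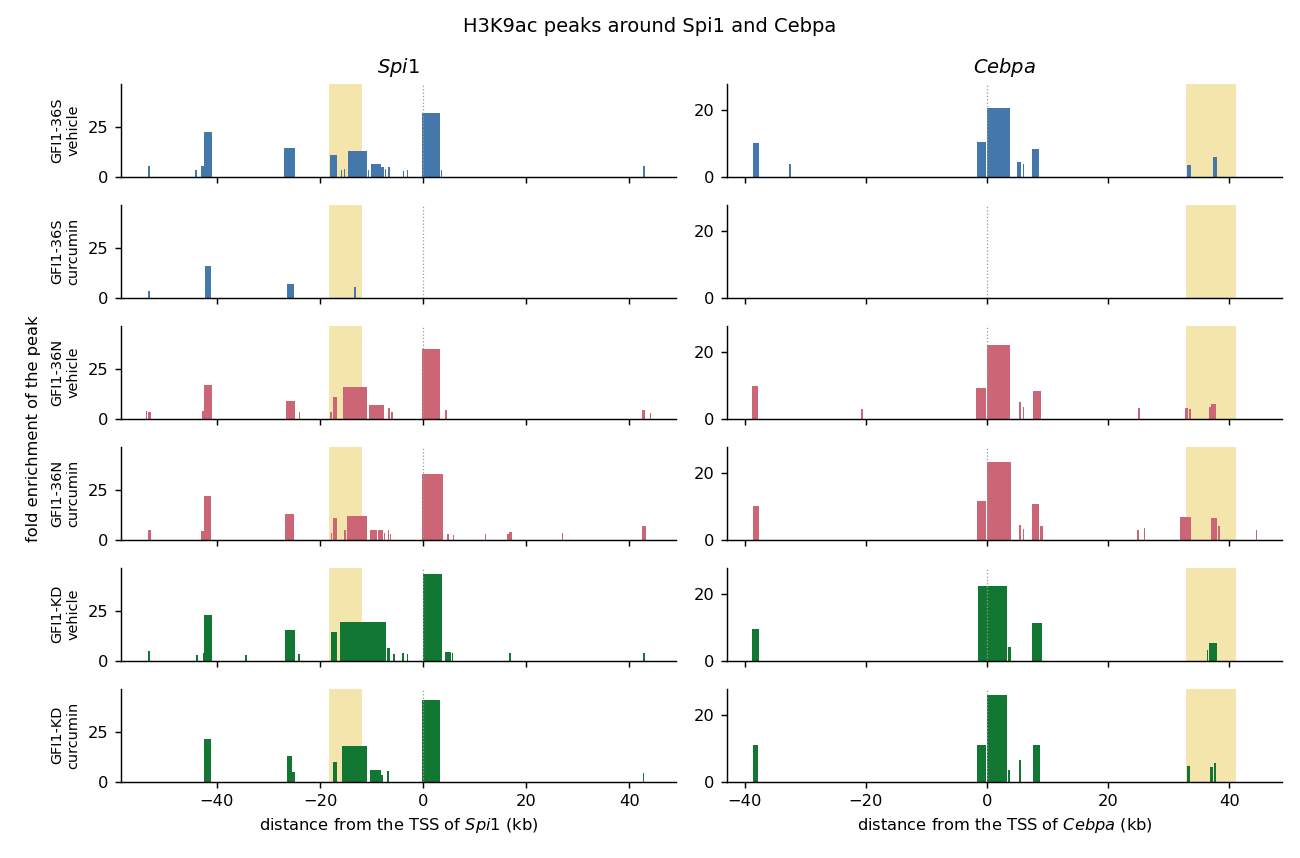
Peaks around *Spi1* and *Cebpa* in the 6 libraries, drawn by distance from the TSS in kb with the fold enrichment of each peak as its height and the enhancer windows shaded. The peak at the *Spi1* TSS used here is missing from the library labelled *GFI1-36S* curcumin, and no peak is drawn around *Cebpa* there. This library keeps a weak peak of 5.52 in the upstream window, near the upstream start of the *Spi1* gene record. The strong peaks far upstream of *Spi1* lie at the promoters of *Psmc3* and *Slc39a13*.

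Around *Cebpe*, the window from 4 to 8 kb downstream of the TSS had a peak in 5 libraries, with a fold enrichment of 5.90 in *GFI1-36S* vehicle, 4.17 and 7.61 in the *GFI1-36N* pair and 5.63 and 3.31 in the *GFI1-KD* pair. The order of the values within each pair was that of the promoter, higher with curcumin in *GFI1-36N* and lower with curcumin in *GFI1-KD* mice, as also at the site from −3066 to −2192 bp in *GFI1-36N* (4.17 and 7.10). These peaks are weak, with 24 to 43 fragments at the summit in the window. Not every site around *Cebpe* followed the order of the promoter. From 8525 to 9164 bp, peaks stood at 4.03 and 3.58 in the *GFI1-36N* pair and at 2.54 and 2.90 in the *GFI1-KD* pair. Between −43025 and −42563 bp, the *GFI1-KD* peaks stood at 4.35 and 5.80. *Cebpb* lay among many sites, 24 within 50 kb, of which 15 and 7 were occupied in the *GFI1-36S* pair, 18 and 20 in the *GFI1-36N* pair and 12 and 12 in the *GFI1-KD* pair. Its site at 8622 to 9821 bp had a peak in every library, with a fold enrichment of 11.3 and 5.52, 7.62 and 12.1, and 12.5 and 6.14. A site at −33183 to −30490 bp was also listed in all of them, at 16.6 and 8.90, 16.5 and 16.6, and 19.7 and 17.6. At *Cebpg*, a site from −8500 to −7834 bp stood at 10.3 in *GFI1-KD* curcumin and between 3.44 and 4.17 in the 4 other libraries with a peak.

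**Figure D4:**
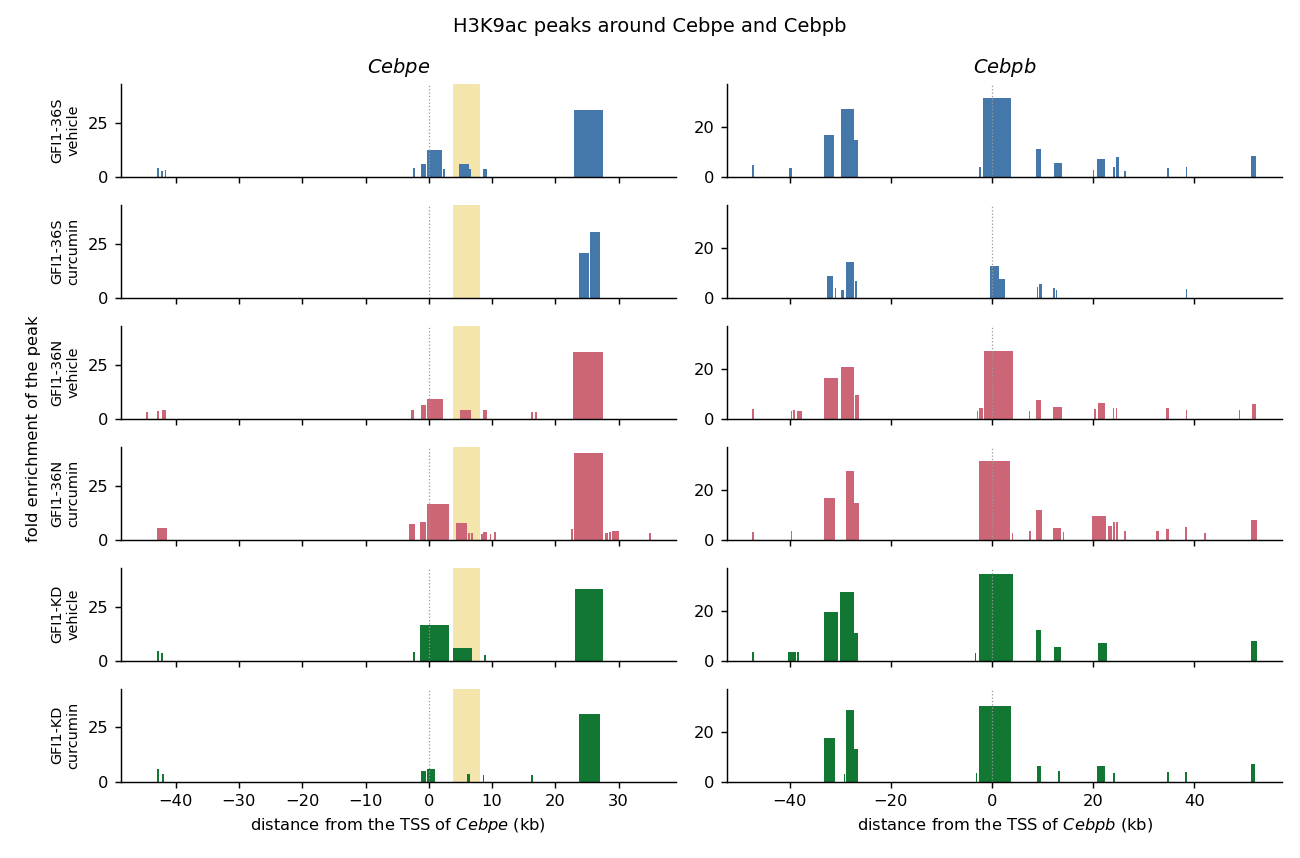
Peaks around *Cebpe* and *Cebpb* by distance from the TSS in kb, read in the direction of the gene, with the fold enrichment of each peak as its height and the *Cebpe* downstream window shaded. The *Cebpe* promoter reaches 16.6 in *GFI1-36N* curcumin and 5.69 in *GFI1-KD* curcumin, and the tall downstream peak in every library lies at the promoter of *Acin1*.

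Over the 7 loci, the peaks of all lists merged to 100 different sites within 50 kb of a member, counted once where the *Cebpa* and *Cebpg* windows overlap. A peak was present at 55 and 17 of them in the *GFI1-36S* pair, 64 and 77 in the *GFI1-36N* pair and 56 and 42 in the *GFI1-KD* pair (vehicle and curcumin). The fewest were found in the shortest list and the most in the longest. With the 20354 top peaks of each list, the numbers were 32 and 17, 33 and 38, and 30 and 33, so that the *GFI1-KD* direction turned. Of the 81 sites away from the promoters of the basic annotation set, 18 had a peak in all libraries other than *GFI1-36S* curcumin. Of these 18, 4 had one there too, among them the *Spi1* site from −16053 to −7172 bp. That site holds the upstream start of the *Spi1* gene record. Over the genome, 1983 of 7740 such sites (25.6%) did. Those found in a single library came from *GFI1-36N* curcumin (20), *GFI1-36N* vehicle (9) and *GFI1-KD* vehicle (4). *Cebpb* was the most densely marked of the 7 loci, with 15.3% to 21.8% of its window covered by peaks in the 5 libraries, against a median over all genes of at most 2.88%. In the library labelled *GFI1-36S* curcumin, 8.65% of the *Cebpb* window was covered, 2.51% of the *Spi1* window and none of the *Cebpa* window.

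The promoters beside the members kept their peaks, mostly at a lower rank in the library labelled *GFI1-36S* curcumin. Of 15 other protein-coding genes with a promoter within 50 kb, 11 had a promoter peak in every library, the one labelled *GFI1-36S* curcumin included. These 11 are not all separate promoters, since *Gm20431* and *Tmem189* share their ranks, as do *Acin1* and *1700123O20Rik*. *Ndufaf7* has the peak of the member *Cebpz*. Of the 11, 8 ranked lower and 3 higher with curcumin in the *GFI1-36S* pair as labelled, where 69.1% of all genes ranked lower. *Mzt2*, the neighbour of *Cebpd*, ranked 54.2 and 30.9, and *Slc39a13*, a zinc transporter gene near *Spi1*, 29.7 and 16.8. *Psmc3*, a proteasome subunit gene also near *Spi1*, ranked 61.1 and 71.8. *Acin1*, a splicing-associated gene with its TSS 25243 bp from that of *Cebpe*, ranked 87.1 and 99.1.

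The genes that work with or under these factors were taken from lists. Of 12 relatives, partners and antagonists of PU.1, 9 and 7 had a promoter peak in the *GFI1-36S* pair, 9 and 10 in the *GFI1-36N* pair and 10 and 8 in the *GFI1-KD* pair. *Jun*, which encodes a coactivator of PU.1, ranked 97.7 and 6.35 in the *GFI1-36S* pair, 93.0 and 66.4 in the *GFI1-36N* pair and 98.5 and 99.3 in the *GFI1-KD* pair. *Irf8*, a partner of PU.1 in monocytes, ranked 24.2 and 5.68, 69.9 and 47.1, and 36.1 and 54.6. *Cbfb*, the common partner of the RUNX factors, stayed high throughout, from 71.7 to 86.7. *Spib* and *Spic*, the nearest relatives of *Spi1*, had no promoter peak in any library.

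Of the 13 matched partners, competitors and inhibitors of C/EBP proteins, 12 and 8 had a promoter peak in the *GFI1-36S* pair, 11 and 11 in the *GFI1-36N* pair and 12 and 11 in the *GFI1-KD* pair. *Trib1*, whose product leads C/EBPα to degradation, ranked 58.0 and 98.8 in the *GFI1-36S* pair, 37.4 and 37.2 in the *GFI1-36N* pair and 62.5 and 24.9 in the *GFI1-KD* pair. It was thus among the highest promoters of the library labelled *GFI1-36S* curcumin. *Trib2* and *Trib3* of the same list went the other way in this pair, at 21.7 and 0, and at 44.4 and 15.0. *Gfi1*, a repressor that acts beside C/EBPε in neutrophils, ranked 20.96 and 68.8, 21.1 and 35.5, and 26.7 and 29.3. An H3K9ac peak at *Gfi1* does not measure GFI1 expression and is no check of the genotypes. *Klf4*, a monocyte factor, ranked 28.9 and 0, 76.4 and 43.1, and 49.7 and 88.0.

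Of 27 target genes of C/EBP proteins and PU.1, 24 and 2 had a promoter peak in the *GFI1-36S* pair, 23 and 22 in the *GFI1-36N* pair and 24 and 20 in the *GFI1-KD* pair. In the *GFI1-36S* pair as labelled, 22 of the 24 had a peak with vehicle and none with curcumin. The others, *Il6ra* (42.6 and 10.2) and *Laptm5* (46.4 and 65.1), a gene also used in lymphoid cells, kept one. Of all 11608 genes with a peak in that pair, 16.2% had it with vehicle alone. The list had a median rank of 20.4 in *GFI1-36S* vehicle. Many of its genes, such as *Mpo*, *Ltf* and *Csf1r*, are also among the neutrophil or monocyte markers, so these lists are not independent. The median change of the list was −20.6 for *GFI1-36S*, −5.91 for *GFI1-36N* and −2.97 for *GFI1-KD*, against −6.61, 1.89 and −2.34 over all genes. *Csf3r*, the G-CSF receptor gene, ranked 37.2 and 0 in the *GFI1-36S* pair, 53.6 and 99.9 in the *GFI1-36N* pair and 45.6 and 66.4 in the *GFI1-KD* pair, so that with curcumin it was near the top of all promoters in *GFI1-36N*. *Csf1r*, the M-CSF receptor gene, ranked 21.3 and 0, 42.8 and 21.9, and 25.2 and 55.3. Granule and alarmin genes went different ways in *GFI1-KD* mice. *S100a8* ranked 74.9 with vehicle and 10.2 with curcumin there. *Ltf*, *Camp*, *Ngp* and *S100a9* ranked 21.8, 20.9, 37.7 and 59.9 with vehicle and had no promoter peak with curcumin in *GFI1-KD* mice. Of the primary granule genes, *Mpo* ranked 14.5 and 25.7, *Ctsg* 14.9 and 17.3, *Prtn3* 15.3 and 15.3 and *Elane* 6.32 and 1.29.

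**Figure D5:**
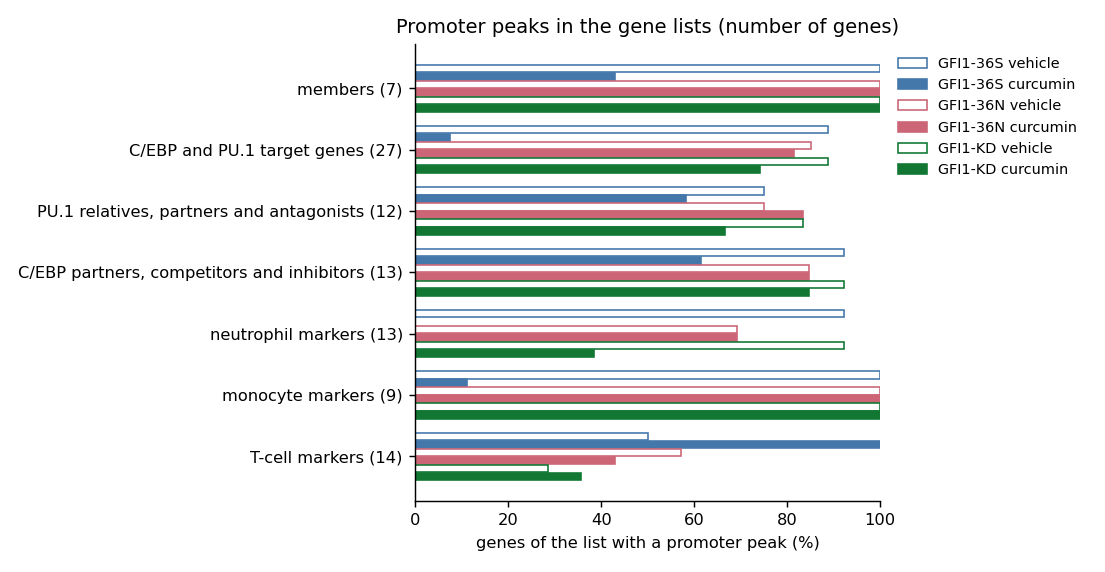
Percentage of the genes of each list with a promoter peak in the 6 libraries, with open bars for vehicle and filled bars for curcumin, the number of genes of the list in brackets and an axis that starts at 0. In the library labelled *GFI1-36S* curcumin, 2 of 27 target genes and 0 of 13 neutrophil markers have a peak, and all 14 T-cell markers do.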

How the data were processed

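H3K9ac ChIP-seq libraries (antibody ab4441) of BM cells were analysed from the deposited peak lists, 1 per group. The authors trimmed reads with Trim Galore, mapped them to mm10 with BWA-MEM, called peaks per library with MACS2 and removed the ENCODE black list. The control behind each list, the threshold and the handling of duplicates are not given in the sources used here. The deposited fold enrichment is a ratio of summit fragments to the local background. The authors' peak caller also wrote the −log10 p-value and −log10 q-value, an integer score and the summit offset, which are not normalized between libraries. An input and a rabbit IgG sample were not used here.

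Genes came from the basic set of GENCODE M21. A promoter covered 1 kb on each side of any TSS, and 1 bp counted as overlap. Peaks overlapping a gene extended by 50 kb were merged to sites. Fragments at summits were recovered from the MACS2 Poisson relation, and came out whole (within 0.05) for 98.4% to 100.0% of the peaks of a library. Their number limits the precision, and counting error is the only error that they cover. The steps were tested on simulated data. The software was Python 3.11.15 with pandas 2.3.3, scipy 1.17.1 and numpy 2.4.6.

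The genes and lists were chosen with earlier results of these data known. Genes named are the 7 members, list genes whose peak differs within a pair, the 3 genes most like *Spi1* and *Cebpa*, and neighbours within 50 kb. *Zeb2*, *Lmo2*, *Sirpa*, *Jun*, *Irf8*, *Cbfb*, *Trib1*, *Trib2*, *Trib3*, *Gfi1*, *Il6ra* and *Laptm5* were named after their values were seen. *Ddit3* did not match the annotation used. Alternatives tried were equal numbers of top peaks (20354 per list), peaks with a −log10 q from 5 upwards, a promoter of 3 kb, the summit inside the promoter, ranks by −log10 p, flanks of 25 and 100 kb, a 2-fold threshold, the *GFI1-36S* treatments exchanged and, added after the data were seen, all annotated TSSs.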

Additional observations from a re-analysis of the deposited data

Results flagged for a closer look

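Results are given here where the pairs of different genotypes moved in opposite directions, and with 1 library per group none of these differences between genotypes was tested. For *Cebpa*, the promoter rank with curcumin minus that with vehicle was 22.2 in *GFI1-KD* mice, −10.7 in *GFI1-36N* and −52.9 in *GFI1-36S* mice as labelled. For *Cebpe*, it was 16.0 in *GFI1-36N* mice, −24.0 in *GFI1-36S* and −26.1 in *GFI1-KD* mice. For *Cebpz*, the 2 values were 12.7 for *GFI1-KD* and −20.1 for *GFI1-36S* as labelled. The *GFI1-36S* values change sign if the names of the lists, not the labels, give the treatments.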

How the results depend on the processing

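Of 191 values under alternatives for 32 results, 161 stayed within their limits, 24 moved and 6 reversed. Of the 161, 22 came from exchanging the *GFI1-36S* treatments, which cannot change these values. A change of sign counted as a reversal for single members and the *GFI1-36S* median, but not for the other medians. The *GFI1-KD* median, 0.00204, thus counted as unmoved at −0.0611 with a promoter of 3 kb and −0.0609 with ranks by −log10 p. Each reversal came from exchanging the *GFI1-36S* treatments, by construction: the median change became 37.3, and *Cebpb*, *Spi1*, *Cebpa*, *Cebpd* and *Cebpe* changed by 37.3, 90.8, 52.9, 89.9 and 24.0. Vehicle then had 3 members with a promoter peak and 17 sites, and curcumin 7 and 55. With the summit required inside the promoter, the *GFI1-36S* median change was −24.1, *Spi1* had a change of 0 there, and 1 member had a peak in a single *GFI1-36N* library. This is *Spi1*, whose summit lies within 1 kb of the TSS in *GFI1-36N* curcumin alone. Among members past the threshold of relative fold enrichment, *GFI1-36S* had 0 with equal numbers of top peaks, 0 at 2 times and 2 with all annotated TSSs, and *GFI1-36N* had 0 at 2 times. With all TSSs, the weak upstream peak counts as a *Spi1* promoter peak in the library labelled *GFI1-36S* curcumin. With the 20354 top peaks of each list, sites numbered 32 and 17 in the *GFI1-36S* pair, 33 and 38 in the *GFI1-36N* pair, and 30 and 33 in the *GFI1-KD* pair (vehicle and curcumin each), which turns the *GFI1-KD* direction, and 3 libraries had a *Cebpe* downstream peak. Flanks of 25 kb gave 36 and 10 sites in *GFI1-36S*, and flanks of 100 kb gave 92 and 30, 97 and 118, and 90 and 74 in the 3 genotypes. No paired analysis was possible because each group has 1 library. Peaks near the calling threshold depend on list size, so that an absent peak means none was listed at this depth.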
